A study of Mus musculus with 4 samples.

Results

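Cytosolic ribosomal protein genes were examined in dorsal skin of male C3H mice treated topically with TCQA, a quinic acid carrying caffeoyl groups that was tested for hair pigmentation, or with the vehicle. The members were chosen by gene symbol, as every probe set whose platform annotation names a single gene of the Rpl, Rps or Rplp series. This gave 69 genes with 131 probe sets, out of 17097 genes with 28898 single-gene probe sets. Of the 69 genes, 42 were large-subunit Rpl genes (80 probe sets), 24 were small-subunit Rps genes (48 probe sets) and 3 were Rplp genes of the P stalk (3 probe sets). Arrays TCQA 1 and TCQA 2 held skin given 1% TCQA, and arrays Control 1 and Control 2 held skin given Milli-Q water. All mice were 8 weeks old at the start, their dorsal hair was shaved, and the labels give 30 days of treatment. The methods of the study state 5 mice per group and the labels do not say whether an array held 1 mouse or several, so a p-value covers the scatter of the arrays alone, and that scatter may be technical. Each value is the log2 signal of a probe set after RMA, a method that subtracts background, brings the arrays to a common scale and combines the probes of a set. A probe set's brightness depends on its probes as well as on the transcript, so values of different genes are not set against each other as amounts of RNA.

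Ribosomal proteins form, with the ribosomal RNAs, the large and small subunits of the cytosolic ribosome, which every cell uses for protein synthesis. Most of their mRNAs begin with a C followed by a run of pyrimidines, the terminal oligopyrimidine (TOP) tract, through which mTORC1 and LARP1 control their translation. In skin, mouse mutations in Rps19 and Rps20 are known for dark skin and a mutation in Rpl24 is known for a white belly spot, so single ribosomal proteins have been tied to pigmentation. The series compares TCQA-treated with control skin and does not perturb the ribosome itself.

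The starts of 6 member genes are shown because their probe sets cover the range of behaviour described here, with the start motif in some high and some low genes. Promoters from RefSeq (GRCm38.p6) were matched for 55 of the 69 genes. Each run gives 40 bases before and 20 bases after the annotated start, 5′ to 3′ on the gene's strand. Capitals mark the pyrimidine motif, the letters CTTT and the next 2 bases where each of these is C or T.
Rps6 (chr4:86857348-86857407, minus strand): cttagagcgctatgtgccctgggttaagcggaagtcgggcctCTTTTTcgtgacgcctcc
Rpl28 (chr7:4792925-4792984, plus strand): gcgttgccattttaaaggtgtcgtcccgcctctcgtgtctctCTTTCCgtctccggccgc
Rpl35 (chr2:39005112-39005171, minus strand): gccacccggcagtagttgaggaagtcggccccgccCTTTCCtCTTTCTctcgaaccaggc
Rps15a (chr7:118116128-118116187, minus strand): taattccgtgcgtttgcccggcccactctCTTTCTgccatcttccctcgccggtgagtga
Rplp2 (chr7:141447611-141447670, plus strand): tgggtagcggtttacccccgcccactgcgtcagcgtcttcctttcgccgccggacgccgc
Rpl3l (chr17:24727786-24727845, plus strand): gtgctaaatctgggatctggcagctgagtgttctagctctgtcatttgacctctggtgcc

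Within 50 bases of the start and on the gene's strand, the pyrimidine motif was held by 30 of 55 member genes (54.5%), against 4701 of 27025 genes with a promoter (17.4%). On the opposite strand it was held by 6 member genes (10.9%), against 16.1% of all genes. The letters CGGAAG, read on both strands over the 300 bases, were held by 38 member genes (69.1%), against 18.8% of all genes. The motifs overlapped each other in 1 member gene (1.82%) and in 11 of all genes (0.0407%). The median difference of Control 1 from the other arrays was 5.68 on the log2 scale for the 30 genes with the pyrimidine motif and 5.37 for the 25 without it, with ranges of -0.42 to 8.24 and 0.43 to 7.85. The genes with and without these letters thus covered nearly the same range. Rpl28, a large-subunit gene with the motif, had 3.72 on TCQA 1 and 3.21 on TCQA 2, against 9.60 on Control 1 and 3.27 on Control 2. A match of letters is a description and not a site of control.

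Control 1 stood apart from the other 3 arrays before any member was considered. The median over all 45037 tested probe sets was 2.54 on TCQA 1, 2.49 on TCQA 2, 2.30 on Control 1 and 2.55 on Control 2, and a value of 8 or more was reached by 31, 23, 522 and 26 probe sets in the same order of arrays. The 9 hybridization controls, bacterial transcripts added to the hybridization mix, had medians of 10.4, 10.8, 6.79 and 10.5, so these were lowest on Control 1. The arrays' own mouse control probe sets were highest there. Gapdh 3′ had 5.29, 4.50, 10.87 and 5.63, and actin 3′ had 3.44, 3.72, 9.37 and 3.83 in the same order. All 8 skeletal muscle markers were at least 2-fold higher on Control 1 than on each other array, with summed linear values of 72.1 and 79.1 on the TCQA arrays, and of 10763 on Control 1 and 65.1 on Control 2. The same held for 6 of 8 keratinocyte markers and 5 of 6 liver markers. It also held for 4 of 6 dermal fibroblast, 2 of 4 adipocyte, 2 of 4 leukocyte and 1 of 3 erythroid markers. Among endothelial and melanocyte markers it held for 0 of 2 and 0 of 5. Keratinocyte markers, which define the labelled tissue, had a median of 8.08 on Control 1 and of 2.85 to 3.13 on the other arrays. The part of these differences in the results for the ribosomal protein genes was not tested. In tissue RNA, fewer cells of a type and less RNA per cell cannot be told apart.

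The ribosomal protein probe sets were low on both TCQA arrays and on Control 2, and high on Control 1. Their median log2 value was 2.93 on TCQA 1 and 2.79 on TCQA 2, against 8.99 on Control 1 and 2.90 on Control 2. No member reached 8 on TCQA 1, TCQA 2 or Control 2, and 88 of 131 did on Control 1. The highest member value was 6.50 on TCQA 1, 7.08 on TCQA 2, 11.02 on Control 1 and 6.57 on Control 2. The median member thus stood at percentile 64.8 of TCQA 1, 63.0 of TCQA 2, 99.5 of Control 1 and 62.9 of Control 2 among the probe sets of its own array. The members made up 0.508%, 0.444%, 7.65% and 0.460% of the summed linear values of TCQA 1, TCQA 2, Control 1 and Control 2, while they were 0.291% of the probe sets. Among the 100 brightest probe sets were 0, 1, 28 and 0 members on the same arrays.

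**Figure D1:**
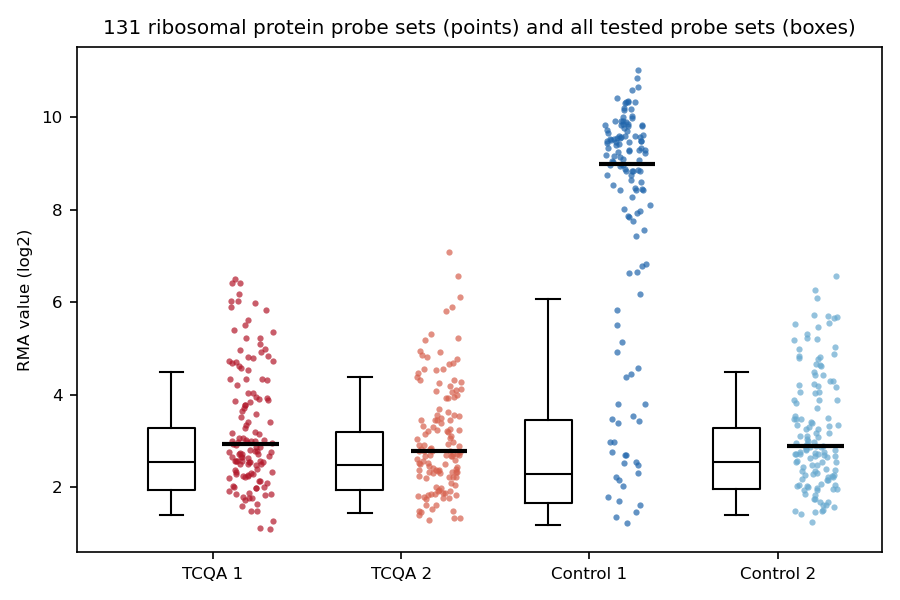
RMA values (log2, y axis) of the 131 ribosomal protein probe sets on each array (x axis; points, with a bar at the median) beside all 45037 tested probe sets (boxes from the 25th to the 75th percentile, whiskers at the 5th and 95th). The member medians are 2.93, 2.79, 8.99 and 2.90, and only on Control 1 does the bulk of the points lie above the box.

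How many members exceeded the arrays' own background was counted against the antigenomic probe sets, which match no mouse transcript. Their highest value was 2.98 on TCQA 1, 3.40 on TCQA 2, 2.31 on Control 1 and 2.62 on Control 2. Above it lay 64, 44, 121 and 84 of the 131 members on these arrays. On TCQA 2, and by a small margin on TCQA 1, most members therefore lay no higher than the highest antigenomic probe set. All probe sets above this highest value, here called the antigenomic level, numbered 15180, 8805, 22218 and 21257. The median antigenomic probe set had 1.33, 1.64, 1.08 and 1.24 on the same arrays. The members' medians of 2.93, 2.79, 8.99 and 2.90 lay above these medians.

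Between the groups, no ribosomal protein probe set passed the test. The median log2 fold change, TCQA minus control, was -2.66 over the 131 probe sets, against 0.12 over all probe sets. Over the 69 genes it was -3.04 with 1 probe set each, picked by a mean that includes Control 1. The fold change was negative for 121 member probe sets (92.4%) and positive for 10, where 38.9% of all probe sets were negative. With limma over all 45037 probe sets, 0 members were called lower or higher at an adjusted p under 0.05, where 0% of all probe sets were called in either direction, and the smallest adjusted p of a member was 0.92. No member had an unadjusted p under 0.05, against 141 of all probe sets. The study called a 2-fold change significant using ANOVA. It stated a p of 0.05 or less as significant in general, though a gene in its lists lay above it. By these thresholds, with the limma p in place of the ANOVA p, 0 members were lower and 0 higher. Of all probe sets, 0.122% were lower and 0.135% higher. With 2 arrays a group, the smallest p that an exact permutation test allows is 0.333.

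This outcome rested on the 2 control arrays, whose member medians lay farther apart than those of Control 2 and either TCQA array. Without Control 1, the members had a median log2 fold change of -0.06, against -0.02 over all probe sets. Of the members, 76 were negative and 55 positive, and of all 45037 probe sets 23991 were negative and 21040 positive. Without Control 2, the median was -5.28 and limma called 109 members, 108 of them lower with TCQA, with Control 1 as the only control array and assumed to vary as the TCQA arrays do. In that setting 10538 of all probe sets were called. Both TCQA arrays lay below both control arrays for 36 members (27.5%), against 10.9% of all probe sets, and above both for 2 members (1.53%), against 17.9% of all probe sets. Since Control 1 exceeded every other array for 115 members, this count depends on where Control 2 lay. Control 2 lay between the TCQA arrays for 47 members (35.9%), near the 39.0% of all probe sets.

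**Figure D2:**
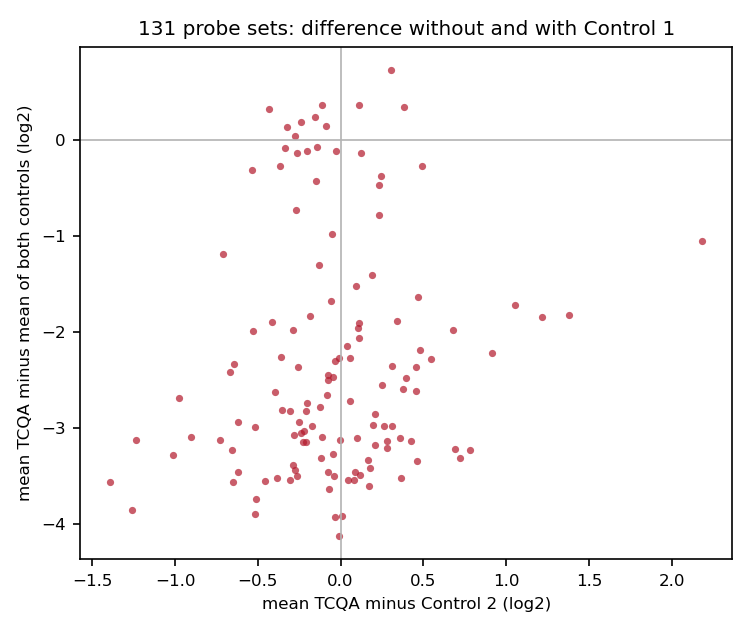
Log2 difference of each of the 131 probe sets, mean TCQA minus the mean of both controls (y axis) against mean TCQA minus Control 2 alone (x axis). Both axes share the TCQA arrays and Control 2. The points centre on -2.66 on the y axis and on -0.06 on the x axis, and 121 lie below 0 on the y axis.

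Set against the mean of the other 3 arrays, Control 1 was higher by a median of 5.27 on the log2 scale over the members, against -0.34 over all probe sets. The members' differences ran from -1.23 to 8.24. Control 1 was at least 2-fold above each other array for 107 members (81.7%), where 15.9% of all probe sets met the same rule. It was at least 16-fold above the mean of the others for 93 of 131 members, against 1460 of all 45037 probe sets. For no member was Control 1 at least 2-fold below each other array, while it was for 2927 of all probe sets. Large-subunit and small-subunit probe sets had medians of 5.11 and 5.30. As 1 array is set against arrays of 2 groups, these differences have no replicate check and were given no test.

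**Figure D3:**
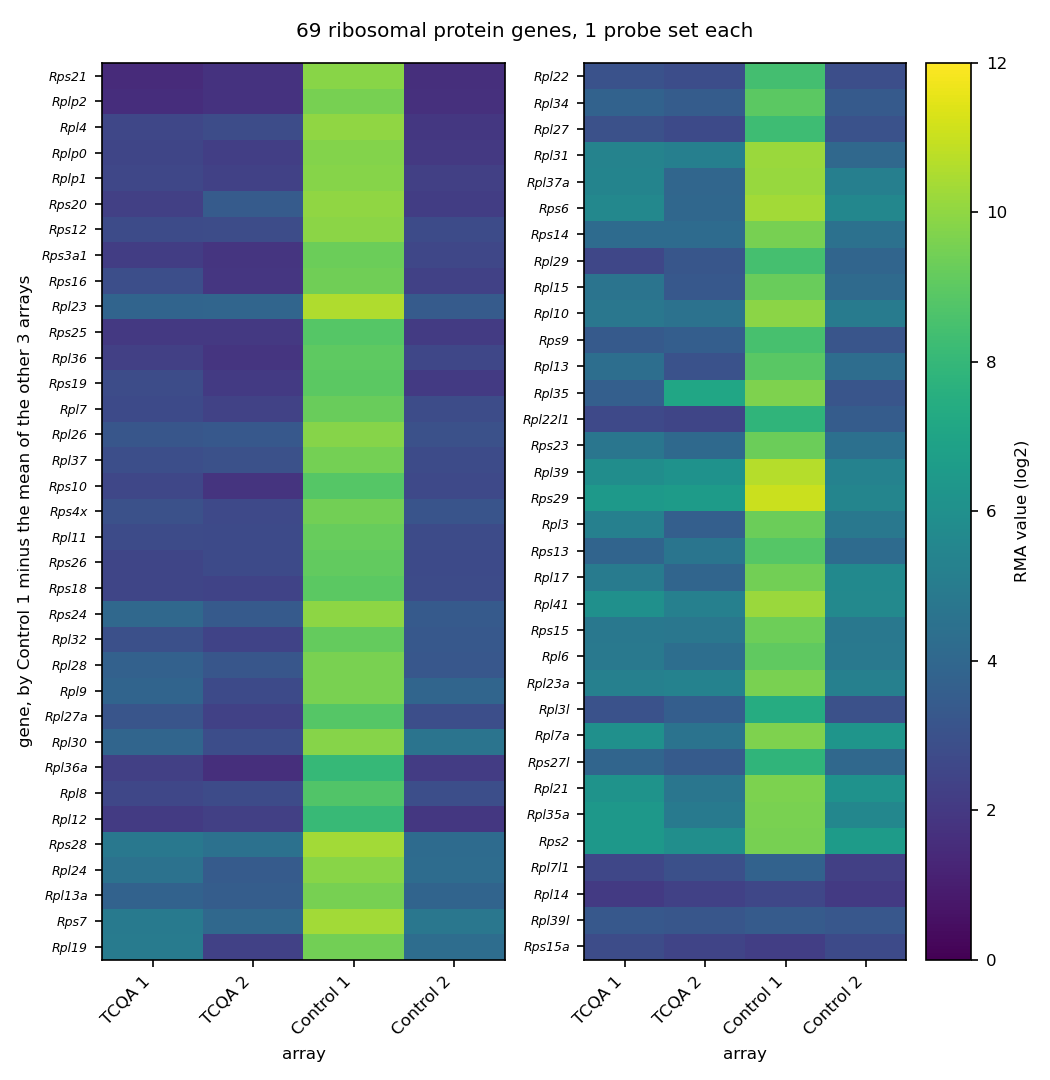
RMA values (log2, colour) of 69 ribosomal protein genes, 1 probe set each with the highest mean over the 4 arrays, on the 4 arrays (x axis), ordered by Control 1 minus the mean of the others. The Control 1 column is the brightest for 68 genes, and the 4 rows at the end (Rpl7l1, Rpl14, Rpl39l and Rps15a) show little contrast.

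The P stalk, the lateral protuberance of the large subunit that recruits elongation factors, was high on Control 1 and not above the antigenomic level on any other array. Rplp0, which anchors the stalk, had 2.50 on TCQA 1 and 2.23 on TCQA 2, against 9.78 on Control 1 and 2.00 on Control 2. Rplp1 had 2.56 and 2.32 on the TCQA arrays, against 9.84 on Control 1 and 2.27 on Control 2. Rplp2, whose start is shown above without the motif, had 1.59 and 1.77 with TCQA, against 9.53 and 1.67 on the control arrays. In Rplp0 and Rplp1 the TCQA arrays did not lie below Control 2. All 3 genes were above the antigenomic level on Control 1 alone, so the exact size of each difference rests on values under that level. Their log2 fold changes were -3.52 ± 2.61 (SE), -3.61 ± 2.54 and -3.92 ± 2.64, each with a limma adjusted p of 0.92, and without Control 1 they turned to 0.36, 0.17 and 0.01.

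With 1 probe set per gene, the other differences of Control 1 among the largest 6 were those of Rps21, Rpl4 and Rps20. Their values on the other arrays were not above the antigenomic level either, except for Rps20 on TCQA 2. Rps21, a small-subunit protein, had 1.48 and 1.74 with TCQA in probe set 1430288_PM_x_at, against 9.85 on Control 1 and 1.62 on Control 2. Its fold change was -4.13 ± 2.77 (SE, limma adjusted p = 0.92). Rpl4, a large-subunit protein that reaches into the exit tunnel of the nascent chain, had 2.55 and 2.79 with TCQA, against 10.02 on Control 1 and 1.95 on Control 2. Rps20 had 2.29 and 3.46 in its highest probe set with TCQA, against 10.02 and 2.19. Rps19, chosen for the pigmentation background after its values were seen, had 2.78 and 2.04 with TCQA, against 8.98 on Control 1 and 2.05 on Control 2. In these probe sets of the genes tied to dark skin, Control 1 stood above the other 3 arrays and Control 2 lay close to the lower TCQA array, whereas 2 further probe sets of Rps20, given with its other probe sets, were not high on Control 1.

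Rps6, the small-subunit protein phosphorylated by S6 kinase downstream of mTORC1, is named by the study. Its 3 probe sets did not go together on Control 1. The study lists Rps6 as lower with TCQA, with an ANOVA p and without naming a probe set. Probe set 1416141_PM_a_at had 5.61 and 4.0 with TCQA, against 10.34 on Control 1 and 5.53 on Control 2. Probe set 1416142_PM_at had 2.75 and 2.79 with TCQA, against 4.44 and 3.48. Probe set 1453466_PM_at had 2.14 and 2.32 with TCQA, against 1.62 and 2.47. On Control 1 the first was the brightest of the 3 by 8.71 over the third, and the third was lower there than on every other array. Their log2 fold changes were -3.13 ± 1.72, -1.19 ± 0.45 and 0.18 ± 0.43 (SE), with limma adjusted p of 0.92, 0.92 and 0.95. Without Control 1, the TCQA mean minus Control 2 was -0.73, -0.71 and -0.24, although TCQA 1 lay above Control 2 in the first. The second had the smallest unadjusted limma p of all members, with both TCQA arrays below both controls.

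Probe sets of the same gene often disagreed on Control 1. Of the 69 genes, 36 had 1 probe set and 33 had 2 to 5, in all 95 probe sets. The median gap between the highest and the lowest probe set of a gene was 1.50 on TCQA 1 and 1.47 on TCQA 2, against 3.64 on Control 1 and 1.37 on Control 2. In 16 of the 33 genes, 1 probe set reached 8 on Control 1 while another stayed under 4. In 9 genes all probe sets reached 8 there, and in 2 genes (Rpl7l1 and Rps27l) none did.

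**Figure D4:**
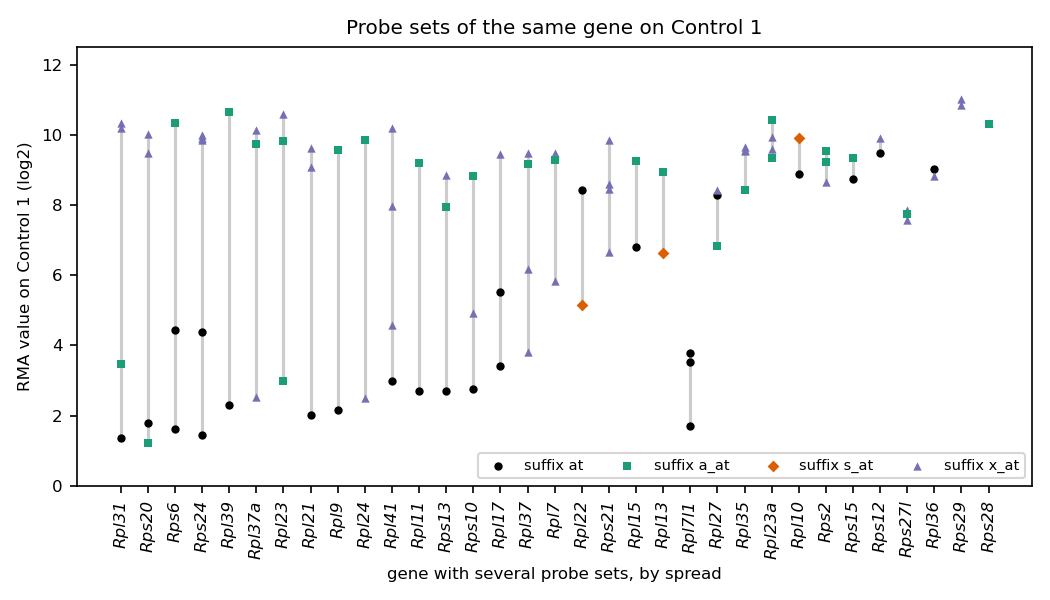
RMA value on Control 1 (log2, y axis) of every probe set of the 33 genes with several probe sets (x axis, by gap), with symbols for the Affymetrix name suffix and a line between the highest and the lowest. The gap runs from 8.97 in Rpl31 to 0.01 in Rps28, and most low points carry the plain suffix.

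Rpl31, a large-subunit protein near the mouth of the exit tunnel, had the widest gap, 8.97. Its probe set 1436924_PM_x_at had 5.09 and 4.87 with TCQA, against 10.34 on Control 1 and 4.07 on Control 2, and 1460008_PM_x_at had 5.37 and 5.18, against 10.18 and 4.05. Its other probe sets went the opposite way on Control 1. Probe set 1420381_PM_a_at had 4.33 and 4.31 with TCQA, against 3.48 and 4.44, and 1436144_PM_at had 1.85 and 2.09, against 1.36 and 1.86. The first pair thus gave fold changes of -2.22 and -1.84, and the second pair 0.36 each, none of them called.

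Rps20 and Rps24 were split in the same way. For Rps20, 1456373_PM_x_at (values above) and 1456436_PM_x_at were high on Control 1, and the second had 1.92 and 2.60 with TCQA against 9.49 on Control 1 and 1.48 on Control 2. Its probe sets 1450417_PM_a_at and 1421935_PM_at stayed between 1.09 and 1.98 on all 4 arrays. For Rps24, whose human gene is mutated in Diamond-Blackfan anaemia, 3 probe sets with the suffix x_at had 9.84 to 9.98 on Control 1 and 2.21 to 4.04 on the other arrays. Its probe set 1455195_PM_at had 1.83 and 1.98 with TCQA, against 4.38 on Control 1 and 2.04 on Control 2, and 1436500_PM_at had 2.21 and 1.88, against 1.46 and 2.37. A single gene could therefore be read as high or as not high on Control 1, depending on the probe set.

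At the other end, Rps28, Rps29 and Rpl36 had probe sets that agreed on Control 1 within 0.20. The 2 probe sets of Rps28 had 10.31 and 10.32 on Control 1, but 4.33 and 4.79 on TCQA 1, 2.59 and 4.47 on TCQA 2 and 3.29 and 4.18 on Control 2. Those of Rps29 had 10.85 and 11.02 on Control 1, the highest member values there, with 5.51 and 6.50 on TCQA 1, 5.81 and 6.56 on TCQA 2 and 5.21 and 5.47 on Control 2. Those of Rpl36 had 8.83 and 9.03 on Control 1 and 1.79 to 2.56 on the other arrays. Agreement on the bright array did not mean agreement on the dim ones, since the Rps28 probe sets lay 1.88 apart on TCQA 2.

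The low probe sets on Control 1 were mostly of one kind. Of the 24 probe sets under 4 on Control 1, which belong to 20 genes, 18 had the plain suffix at, which Affymetrix gives to probes unique to 1 transcript. Their medians were 2.42 on TCQA 1 and 2.31 on TCQA 2, against 2.54 on Control 1 and 2.42 on Control 2, with single members going either way, since their differences of Control 1 from the mean of the others ran from -1.23 to 1.88 and were negative for 15 of them. The 88 probe sets at 8 or more had medians of 3.39, 3.01, 9.49 and 3.18 on TCQA 1, TCQA 2, Control 1 and Control 2. By suffix, the median on Control 1 was 3.79 for 35 probe sets with at, 9.29 for 45 with a_at (several transcripts of 1 gene), 8.85 for 7 with s_at and 9.49 for 44 with x_at, the last 2 of which can also match other genes. Ribosomal protein genes have many processed pseudogenes, and signals of such copies cannot be told apart in a probe set that matches them. Of the 35 probe sets with the plain suffix, 12 reached 8 on Control 1, and the part of such copies in the values was not tested.

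The paralogs, gene copies that can replace a canonical protein in certain tissues, followed the canonical genes on Control 1 in part. Of 9 listed paralogs 5 were measured, with a median of 4.04 for Control 1 minus the others, against 5.33 for 6 of their 7 canonical partners. Rpl3l, which replaces Rpl3 in striated muscle, had 3.03 and 3.57 with TCQA, against 7.43 on Control 1 and 2.96 on Control 2. Its start, shown above, holds no pyrimidine motif. Rpl3 itself had 5.22 and 3.63 with TCQA, against 9.29 on Control 1 and 4.82 on Control 2. On the same arrays the muscle markers had medians of 2.08 and 2.60 with TCQA, against 9.97 on Control 1 and 2.10 on Control 2, and their part in the Rpl3l value was not tested.

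Rpl39l, known from male germ cells, was flat, with 3.29 and 3.19 with TCQA against 3.44 on Control 1 and 3.27 on Control 2. Its partner Rpl39, a small protein of the exit tunnel, had 5.89 and 6.11 with TCQA in 1450840_PM_a_at, against 10.65 on Control 1 and 5.32 on Control 2. Its second probe set, 1423032_PM_at, had 2.51 and 1.95 with TCQA, against 2.31 and 2.77, so it was not high on Control 1.

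Rpl22l1 had 2.67 and 2.49 with TCQA, against 7.87 on Control 1 and 3.48 on Control 2, a log2 fold change of -3.10 ± 1.50 (SE, limma adjusted p = 0.92). Rpl22, its partner, had 3.01 and 2.85 with TCQA in 1416603_PM_at, against 8.42 and 2.87, and 1.63 and 1.30 in 1448398_PM_s_at, against 5.14 and 1.75. Rps27l, a target of p53, had 3.91 and 3.46 with TCQA in its highest probe set, against 7.85 and 4.04, and its 3 probe sets agreed within 0.29 on Control 1. Rpl7l1 was low in its 3 probe sets, which had 1.69 to 3.79 on Control 1 and 1.49 to 2.94 on the other arrays, while Rpl7 had 2.78 and 2.23 with TCQA in 1415979_PM_x_at, against 9.47 and 2.54. The X-linked partners Rpl10 and Rps4x had 9.92 and 9.42 on Control 1 in their highest probe sets, and 2.67 to 4.99 on the other arrays.

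With 1 probe set per gene, 62 of the 69 genes reached 8 on Control 1, and 5 of the 7 that did not were these paralogs. The other 2 were canonical genes measured by a single probe set of the plain suffix. Rps15a had 2.77 and 2.46 with TCQA, against 2.23 on Control 1 and 2.70 on Control 2, and it was the only gene whose difference for Control 1 was negative, although its start holds the pyrimidine motif. Rpl14 had 2.02 and 2.30 with TCQA, against 2.55 and 2.03. Among the smallest differences of Control 1 were also Rps2 and Rpl35a, whose values on the other arrays were well above the member median. Rps2 had 6.42 and 5.91 with TCQA in 1431765_PM_a_at, against 9.55 and 6.57, and Rpl35a had 6.41 and 4.92, against 9.59 and 5.56.

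The members with the smallest p in each direction did not pass the test. Besides the Rps6 probe set described above, these were Rps2 in 1422156_PM_a_at, with 3.53 and 3.45 with TCQA against 9.22 on Control 1 and 4.88 on Control 2, and Rpl17 in 1423855_PM_x_at, with 4.97 and 3.93 against 9.46 and 5.69. In both, the TCQA arrays lay below Control 2 as well, and without Control 1 the differences were -1.39 and -1.24. In the positive direction, Rpl24, the gene of the belly spot mutant, had 3.58 and 3.70 with TCQA in 1447653_PM_x_at, against 2.49 and 3.34, a log2 fold change of 0.73 ± 0.43 (SE, limma adjusted p = 0.92). Its other probe set, 1460201_PM_a_at, went the other way, with 4.52 and 3.45 with TCQA against 9.86 and 4.23, a log2 fold change of -3.05 ± 1.94 (SE, limma adjusted p = 0.92). Rpl37 in 1450838_PM_x_at had 3.95 and 4.25 with TCQA, against 3.80 and 3.72, a fold change of 0.34. The positive probe sets of Rpl24 and Rpl37 and the Rpl31 probe set 1436144_PM_at were all under 4 on Control 1, as were all 10 probe sets with a positive fold change.

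Without Control 1, the members' differences of the TCQA mean from Control 2 ran from -1.39 to 2.19, and 8 of 131 lay beyond 1 in size. Over all 45037 probe sets, 241 did. The largest member difference belonged to Rpl35, a large-subunit protein at the exit tunnel. Its probe set 1436840_PM_x_at had 3.66 on TCQA 1 and 7.08 on TCQA 2, against 9.66 on Control 1 and 3.18 on Control 2. Its other 3 probe sets had 2.72 to 4.94 on TCQA 2 and 8.42 to 9.58 on Control 1. The value of 7.08 was the highest of any member outside Control 1 and was not shared by the other TCQA array.

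Over the members, TCQA 1 correlated with Control 2 at r = 0.951 and with TCQA 2 at r = 0.848, while Control 1 correlated with the other arrays at r = 0.405 to 0.464 (131 probe sets, which share genes and are not independent). Over all 45037 probe sets the same correlations were 0.956, 0.886 and 0.412 to 0.413, so the members shared this pattern with the arrays as a whole.

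Other genes of the translation apparatus were also higher on Control 1. For each list except that of other cytosolic ribosome genes, the median difference was smaller than that of the members. In every list a gene stands by its probe set with the highest mean over the arrays, which favours probe sets bright on Control 1. The difference of Control 1 from the others had a median of 5.59 over the 69 member genes, against -0.30 over all 17097 genes. It was 5.95 for 3 other genes of the cytosolic ribosome (Fau, Rpsa and Rpl36al), 3.97 for 11 elongation factors and 3.11 for 10 further TOP mRNAs. Eef1a1, which delivers aminoacyl-tRNA to the ribosome, had 3.21 and 2.48 with TCQA, against 10.39 on Control 1 and 3.10 on Control 2. Pabpc1, the poly(A)-binding protein, had 3.01 and 2.84, against 9.22 and 3.40. Both were picked as the largest differences of the elongation factors and the TOP mRNAs, 7.46 and 6.14. The smallest of these lists were 0.14 (Eefsec) and 1.26 (Pabpc4). The median was 2.40 for 30 initiation factors, 1.69 for 73 genes of the mitochondrial ribosome, which is a separate machine, and 0.69 for 48 ribosome biogenesis genes. In TCQA minus control, 10 of 11 elongation factors, 10 of 10 TOP mRNAs, 22 of 30 initiation factors, 59 of 73 mitochondrial ribosome genes and 35 of 48 biogenesis genes had a negative fold change, against 68 of 69 member genes (98.6%) and 7494 of all 17097 genes (43.8%). At an adjusted p under 0.05, limma called 0 of them and 0 of all genes.

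**Figure D5:**
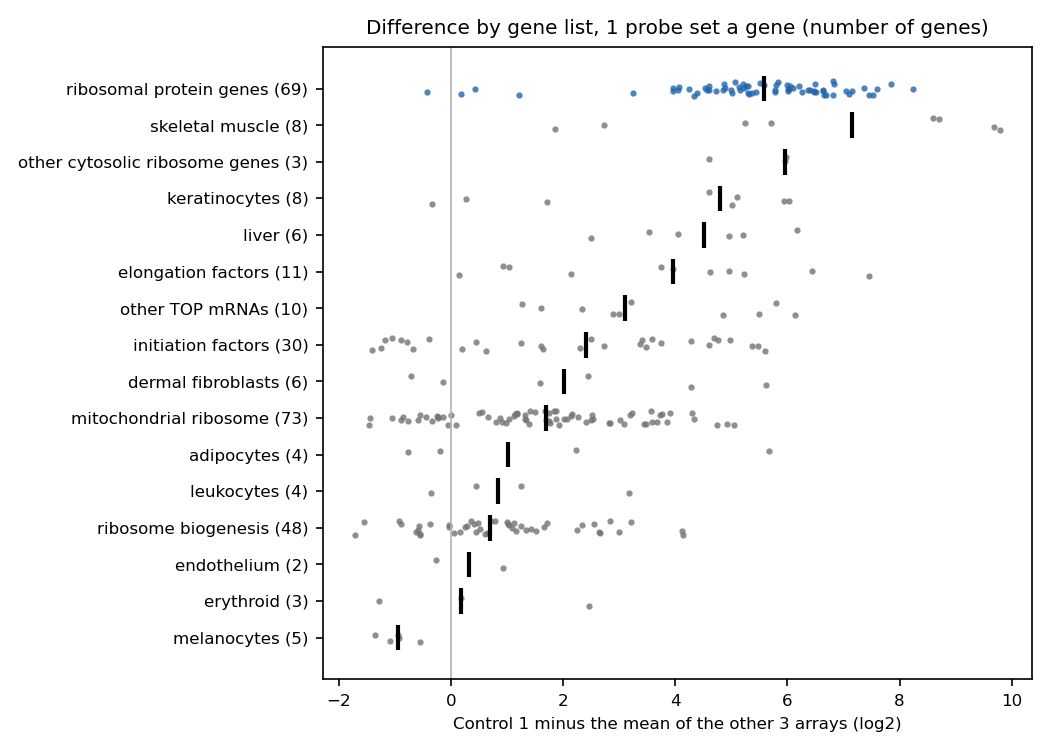
Control 1 minus the mean of the other 3 arrays (log2, x axis) for each gene (points) of the ribosomal protein genes and of the comparison lists (y axis, ordered by the median after the first row), with a bar at the median. The ribosomal protein genes centre on 5.59, the skeletal muscle markers on 7.16 and the melanocyte markers on -0.95.

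Markers of cell types differed among themselves on the same array. Skeletal muscle markers had a median difference of 7.16, keratinocyte markers 4.81, liver markers 4.51 and dermal fibroblast markers 2.01. Smaller medians were those of adipocyte (1.02), leukocyte (0.85), endothelial (0.33) and erythroid markers (0.17). The 5 melanocyte markers were at -0.95, with 0 of 5 higher on Control 1 than on the mean of the others. The ribosomal protein genes thus lay between the muscle and the keratinocyte markers.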

How the data were processed

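RNA of dorsal skin was measured on 4 Affymetrix mouse PM arrays, 2 per group. The authors deposited RMA values on the log2 scale, and the submitters' processing notes list Expression Console and Transcriptome Analysis Console of Affymetrix. Whether the 4 arrays were normalized together is not given in the sources used here. Of 45141 probe sets, 104 Affymetrix controls were left out of the tests. Gene names came from the annotation of the platform, in which 15588 are not listed and 551 name several genes. All 69 member symbols were in the RefSeq table. The group comparison used limma 3.58.1 under R 4.3.3 (two-sided, Benjamini-Hochberg over 45037 probe sets, 2 residual degrees of freedom), after a test on simulated data. Where 1 probe set stands for a gene, its mean over the arrays was the highest of the gene's probe sets, so Control 1 bears on the choice. Named genes are those with the highest and lowest means, the largest and smallest differences of Control 1 and gaps between probe sets, the paralogs with their partners, the P stalk, Rps6 and the smallest p. The members and lists were chosen with earlier results of these data known. The alternatives were a further quantile normalization, median centring, a filter on dim probe sets, limma's trend and robust options, an unmoderated test, replicate blocks, other choices of probe set and leaving out each array. The number of arrays limits the precision, and no read depth applies.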

Additional observations from a re-analysis of the deposited data

Results flagged for a closer look

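The hybridization controls of the bioB transcript, which were left out of the tests, gave a signal in the treated arrays above that of the control arrays. These probe sets were picked for that direction. As means over both TCQA arrays, the 3 bioB probe sets had log2 values of 9.55 (3′), 9.46 (5′) and 9.76 (middle), and their median was 8.99 on TCQA 1 and 10.2 on TCQA 2, against 4.87 on Control 1 and 8.58 on Control 2. On Control 1, where the ribosomal protein probe sets were highest, these were lowest. The other hybridization controls did not share the order of TCQA 1 and Control 2. The medians of bioC, bioD and cre were 10.41, 11.39 and 12.35 on TCQA 1, below 10.42, 11.50 and 12.39 on Control 2. The poly-A control dap had a median of 1.17 and 1.67 on the TCQA arrays, against 5.45 on Control 1 and 1.29 on Control 2. The poly-A control lys had 1.33 and 1.68, against 1.67 and 1.47. For phe the medians were 1.37 and 1.57, against 2.26 and 1.33, and for thr 2.18 and 2.04, against 2.61 and 1.96. The part of these controls in the ribosomal protein values was not tested.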

How the results depend on the processing

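The count of 0 ribosomal protein probe sets called at an adjusted p stayed 0 under a further quantile normalization, median centring, the filter on dim probe sets, the trend and robust options, the unmoderated test, the replicate block and its crossed form, and among members above the antigenomic level, and ran from 0 to 109 when 1 array was left out (0 to 10538 for all probe sets). By the rule of the study (2-fold, unadjusted p), the members counted lower were 3 with quantile normalization, 13 with the replicate block and 2 with the crossed block, and 0 to 112 with 1 array left out, where those counted higher were 0 to 3. Of all probe sets, 55 were lower and 61 higher. These counts were 100 and 182 with quantile normalization, 16 and 3 without dim probe sets, 14 and 12 in the unmoderated test, 227 and 54 with the replicate block, 53 and 16 with the crossed block, and 67 and 37 with the trend and robust options. With 1 array left out they ran from 0 to 7979 and from 1 to 5532. The replicate numbers carry no pairing in the labels, same-numbered arrays deviated with a correlation of -0.12, and the crossed block was chosen after seeing the data.

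The median log2 fold change of the members was -1.49 after quantile normalization, -0.98 with plain-suffix probe sets alone and -0.06 to -5.28 with 1 array left out. The difference of Control 1 was 2.90 after quantile normalization, 5.50 after centring, 5.44 without dim probe sets, 1.43 with plain-suffix probe sets, 5.47 against TCQA 2 alone and 25.8 as percentile points, a scale chosen after seeing the data. The gap between probe sets on Control 1 was 2.42 after quantile normalization and 2.47 with plain suffixes. Without Control 1, the fold changes of Rplp0, Rplp1 and Rplp2 turned to 0.36, 0.17 and 0.0076, and that of Rps6 probe set 1453466_PM_at to -0.24, and with each array left out in turn they ran from -7.41 to 0.36, from -7.39 to 0.17, from -7.85 to 0.0076 and from -0.24 to 0.61. For the comparison lists, 9 medians moved by more than the spread of the arrays within their groups. That spread holds the gap between Control 1 and Control 2, so this count can hardly register the loss of Control 1. Without Control 1, the median fold change of the muscle markers went from -3.52 to -0.04 and that of the P stalk from -3.61 to 0.17. That of the erythroid markers went from -0.39 to -0.36. The cause was not tested.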

Other observations

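Some transcripts differed between the TCQA arrays themselves. Npm1, a nucleolar chaperone of ribosome assembly, had 5.28 on TCQA 1 and 2.71 on TCQA 2, against 7.38 on Control 1 and 5.15 on Control 2. Others were high on TCQA 2 and not on TCQA 1. Ttr, a plasma carrier protein made in liver, had 1.78 and 7.75 with TCQA, against 8.57 on Control 1 and 1.30 on Control 2, and Dsp, the desmosomal protein desmoplakin, had 2.02 and 5.61, against 8.29 and 1.93. Ttr and Dsp were thus high on TCQA 2 and Control 1, as was the Rpl35 probe set 1436840_PM_x_at. These genes were picked after their values were seen, and the difference between the TCQA arrays was not tested.

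The actin transcript had a 3′ minus 5′ difference of 0.84 and 0.78 on the TCQA arrays, against 2.53 on Control 1 and 1.01 on Control 2. Its 5′ probe set had 2.60 and 2.93 with TCQA, against 6.84 on Control 1 and 2.82 on Control 2. The TCQA values lay under the highest antigenomic values of 2.98 and 3.40, so these actin differences cannot be compared between the arrays. For Gapdh the 3′ minus 5′ difference was 1.99 and 1.67, against 2.09 and 2.18. Its 5′ probe set had 3.30 and 2.82 with TCQA, against 8.78 on Control 1 and 3.45 on Control 2. On TCQA 2 it too lay under the highest antigenomic value, so that difference cannot be compared with the others either.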
